A study of Mus musculus with 36 samples.

Results

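5-Hydroxymethylcytosine (5hmC) was compared between knees with destabilisation of the medial meniscus (DMM) and unoperated knees 12 weeks after surgery. The comparison used 12 of the 36 libraries of the series, the week 12 bisulfite (BS) and oxidative bisulfite (oxBS) libraries, joined by replicate into 6 pairs, 3 from control limbs and 3 from DMM limbs. The 5hmC level of a pair was the BS percentage minus the oxBS percentage at each CpG cytosine, in percentage points, called points here. It was taken at the 1171395 autosomal cytosines with at least 10 reads in all 12 files, each strand counted apart. Single libraries held between 1419242 and 1824694 autosomal cytosines.

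The animals were male C57BL/6J mice operated on the right knee at 12 weeks of age, and the left knee of the same animals served as the control, with no sham operation. Articular cartilage was collected 12 weeks later, and the tissue of 3 knees was pooled for each DNA sample. The libraries were made by reduced representation oxidative bisulfite sequencing (RRoxBS), in which MspI cuts the genome at CCGG so that CpG-dense sequence is read most. Matching RNA and the same assays at 4 weeks belong to the series, and the RNA came from other mice.

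DNA methyltransferases place 5-methylcytosine (5mC) on CpGs, and the TET dioxygenases oxidise 5mC to 5hmC. 5hmC is a step towards demethylation and also a lasting mark, which in many tissues lies in gene bodies and is scarce at CpG islands. Bisulfite alone reads 5mC and 5hmC together as C. After oxidation 5hmC is read as T, so that the oxBS library holds 5mC alone.

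BS libraries held 30243883 to 78565337 read calls at autosomal CpG cytosines and oxBS libraries 46933737 to 141276696, and the median cytosine of a library had 19 to 73 reads. Because 2 percentages are subtracted, counting error can take a single value below 0. Between 0.0674% and 0.693% of the tested cytosines were at -25 points or lower in a pair, and 0.645% to 2.37% were at 25 points or higher. Within the tested set, each BS library's methylation deviations correlated best with the oxBS library of the same title, at r = 0.120 to 0.238 over 332946 cytosines. For control replicate 1 this was 0.175, against 0.174 with the next library. By coverage deviations, the BS library of DMM replicate 2 correlated best with the oxBS library of DMM replicate 3, and with its own at r = 0.0639. The file of the BS library of DMM replicate 1 carries another replicate number in its name than in its title, and the title was followed. The libraries of control replicate 2 and DMM replicate 1 share a style of title that the other 4 pairs do not have. The oxBS coverage deviations of this pair of libraries correlated at r = 0.498, and those of their BS libraries at r = -0.0491. With libraries of the other 4 pairs they correlated at r = -0.567 to -0.456 in oxBS and -0.319 to -0.263 in BS. The main result is therefore also given with and without control replicate 2 and DMM replicate 1. In the RNA of the other mice, Prg4, which encodes lubricin, stood at 5528 to 16438 counts scaled to library size (CPM) in the control libraries and 9744 to 15848 CPM in the DMM libraries. Comp, which encodes a cartilage matrix protein, had control and DMM means of 1427 and 2747 CPM, without overlap (exact permutation p = 0.1). Col2a1 had 681 and 1316 CPM, with overlap (exact permutation p = 0.2). No chondrocyte marker read in the RNA had a lower mean in DMM. The granulocyte gene S100a8 was also present in every library, at 3797 to 7716 CPM. All samples were bulk tissue, so that fewer cells of a type and a lower level per cell cannot be told apart.

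The mean 5hmC level was higher in DMM cartilage. Control pairs 1, 2 and 3 had means of 1.55, 1.63 and 1.43 points, and DMM pairs 1, 2 and 3 had 2.35, 1.78 and 2.02 points. All 3 DMM pairs lay above all 3 control pairs. The limb means were 1.54 ± 0.0998 and 2.05 ± 0.290 points (SD, n = 3 pairs each), a difference of 0.513 points or 33.4% of the control level. The exact two-sided permutation test gave p = 0.1, which is the smallest value that 3 pairs against 3 allow, so this test cannot pass 0.05 here. The pair with titles of one style went from 1.63 points (control 2) to 2.35 points (DMM 1), a difference of 0.721. The remaining pairs averaged 1.49 and 1.90 points, a difference of 0.409. The limbs overlapped when each library was weighted by its own coverage before subtraction (0.649 points, exact permutation p = 0.5). The weights of a cytosine then differ between BS and oxBS, so coverage profiles enter this value. They also overlapped when negative cytosine values were set to 0 (0.237 points, exact permutation p = 0.4).

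Both underlying signals were lower in DMM. The BS level, 5mC plus 5hmC, was 31.5% in control and 31.1% in DMM limbs, a difference of -0.423 points. The oxBS level, 5mC alone, was 29.98% and 29.05%, a difference of -0.936 points. Oxidation yield was not analysed here, and its part in these differences was not tested. The limbs did not overlap in either signal (exact permutation p = 0.1 each). 5hmC made up 4.91%, 5.21% and 4.52% of the BS signal in the control pairs and 7.57%, 5.69% and 6.53% in the DMM pairs. On each of the 19 autosomes the DMM mean was above the control mean, by 0.460 to 0.628 points.

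**Figure D1:**
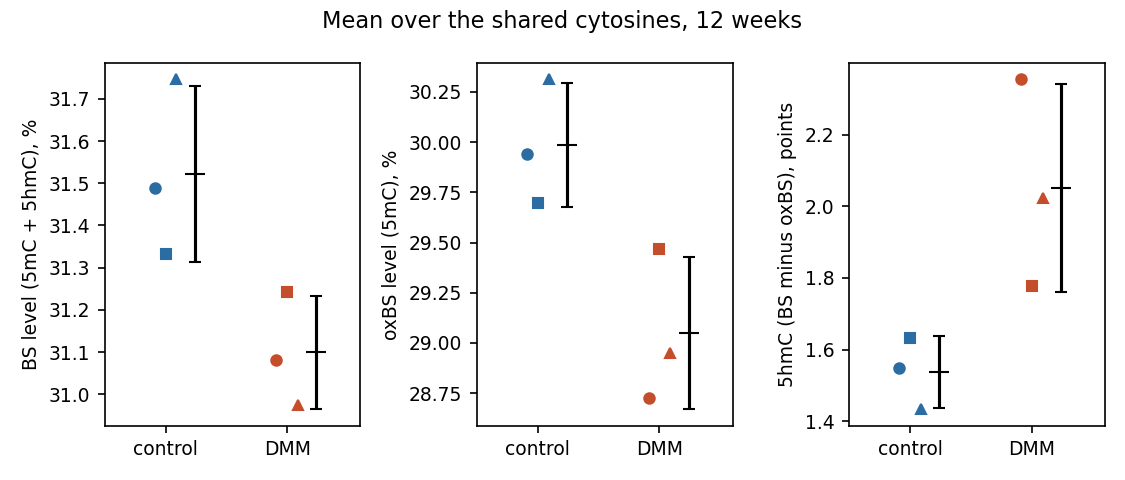
Mean BS level (%), oxBS level (%) and 5hmC (points) over the 1171395 cytosines in each pair, with circles for replicate 1, squares for replicate 2 and triangles for replicate 3, and bars for the mean ± SD of 3 pairs. Axes do not start at 0. The DMM pairs lie below the control pairs in BS and oxBS and above them in 5hmC.

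Among annotated contexts, 5hmC was highest in introns and lowest in promoters in both limbs. Intronic cytosines had 3.197 ± 0.195 points in control and 4.27 ± 0.583 points in DMM limbs (SD, n = 3 pairs). Intergenic cytosines had 2.38 and 3.17 points, and exonic cytosines 1.95 and 2.58 points. Promoters, within 1000 bp of a gene start, held 44.7% of the cytosines and had 0.253 and 0.344 points, a difference of 0.0912 that was 0.0603 points without DMM replicate 1. The limbs did not overlap in any of these 4 contexts (exact permutation p = 0.1 each, Benjamini-Hochberg adjusted p = 0.109 over 12 contexts). The relative difference lay between 32.4% of the control level in exons and 36.1% in promoters.

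Where 20 or more CpGs lay within 201 bp, the density of CpG islands, 5hmC was 0.0609 points in control and 0.0812 points in DMM limbs, and the limbs overlapped (exact permutation p = 0.3). Without DMM replicate 1 this difference went from 0.0203 to 0.00597 points. Where fewer than 10 lay within 201 bp, it was 3.31 and 4.42 points, without overlap. Cytosines that were partly methylated in the 4-week control libraries, with a BS level of 20% to 80%, had the highest means, 4.11 points in control and 5.62 points in DMM limbs. Without DMM replicate 1 the difference in this class went from 1.516 to 0.960 points. In this class the oxBS level was 53.5% and 49.3%. Cytosines in interspersed and other repeats masked in the genome sequence had 1.62 and 2.08 points.

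**Figure D2:**
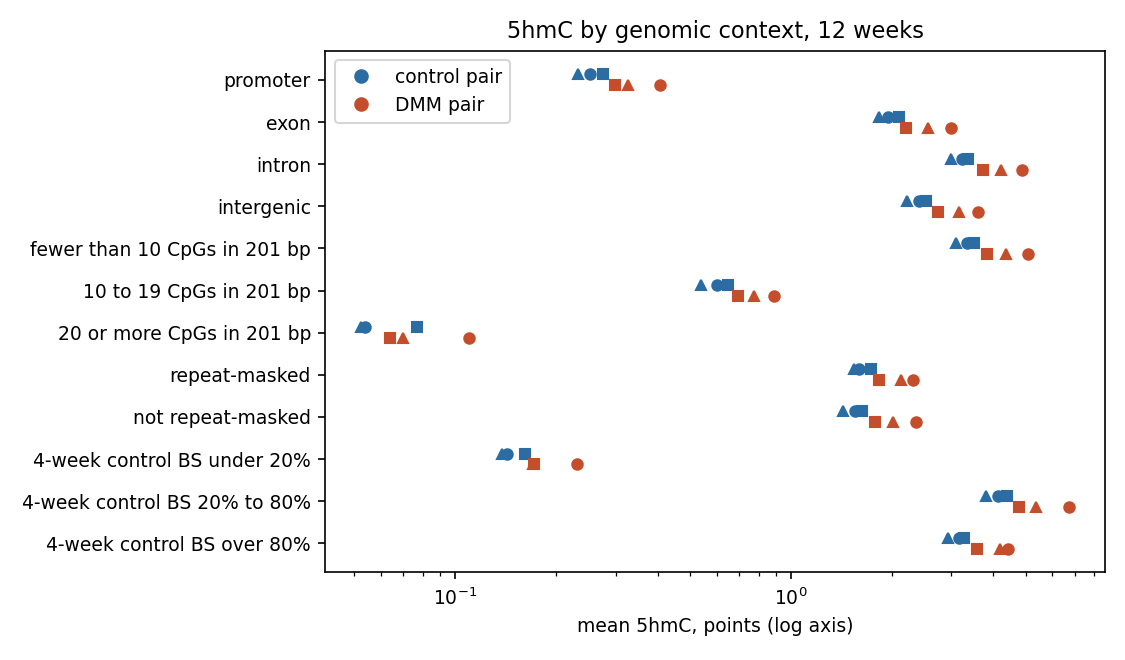
Mean 5hmC of each pair (points, log axis) in 12 genomic contexts, with control pairs in blue, DMM pairs in red, and circles, squares and triangles for replicates 1, 2 and 3. The 3 DMM pairs lie above the 3 control pairs in every context except that with 20 or more CpGs in 201 bp.

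Around gene starts the mark formed a trough in both limbs. In the 250 bp downstream of the start, control pairs had 0.114, 0.145 and 0.105 points and DMM pairs 0.206, 0.131 and 0.146 points, which overlapped. From 5 to 10 kb upstream, the control limbs averaged 2.83 and the DMM limbs 3.66 points. From 5 to 10 kb downstream, they averaged 2.66 and 3.58 points. Only the window at the start itself had overlapping limbs among the 12 windows.

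**Figure D3:**
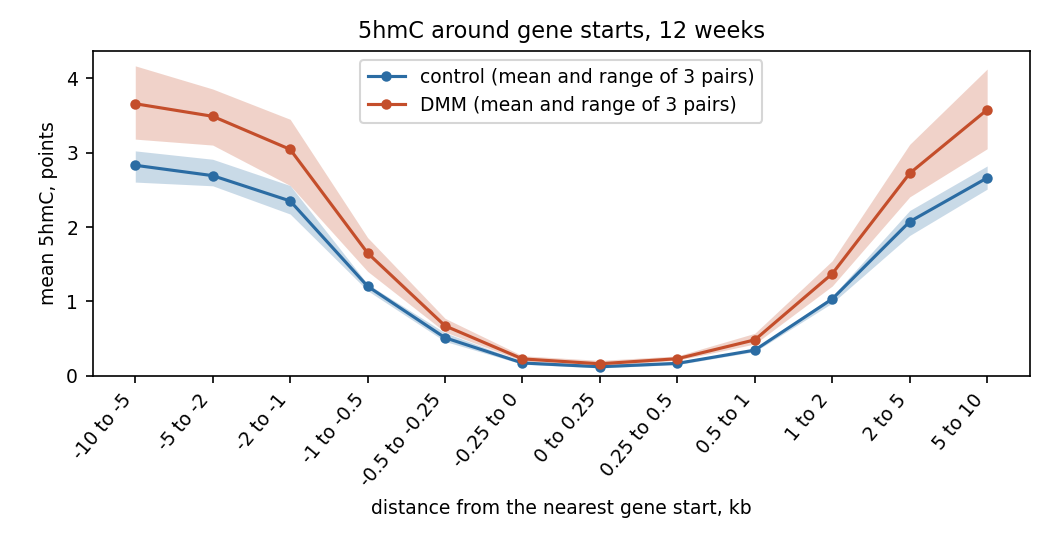
Mean 5hmC (points) against the distance from the nearest gene start (kb, negative upstream), with lines for the mean and bands for the range of 3 control (blue) and 3 DMM (red) pairs. Both limbs reach their lowest level, 0.121 and 0.161 points, in the first 0.25 kb downstream.

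Cytosines rich in 5hmC were also chosen without use of the week 12 libraries, as those with at least 10 points in each 4-week control pair and a mean of at least 20 points over them. Of 15156 such cytosines, 12362 were measured at 12 weeks. Control pairs 1, 2 and 3 had 12.7, 13.5 and 11.7 points there, and DMM pairs 19.1, 14.5 and 16.8 points. The DMM pairs lay above all control pairs, by 4.19 points on average (exact permutation p = 0.1). These are the same pairs as above, so this is no separate support. The limb means were 12.6 and 16.8 points, so the larger difference stands on a higher level than over all cytosines. At the 1100989 cytosines measured at both time points, the limbs averaged 2.15 and 2.58 points at 4 weeks, with 1.63, 2.63 and 2.19 points in the control pairs and 2.33, 2.86 and 2.55 points in the DMM pairs. These overlapped (exact permutation p = 0.3). At 12 weeks the same cytosines averaged 1.51 and 2.01 points. The limb difference at 12 weeks minus that at 4 weeks was 0.0715 points, which was not past the exact permutation test of limb labels within weeks (p = 0.885). It lay between -0.170 and 0.333 points with 1 pair left out and so had no stable sign.

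For genes, 5hmC was averaged over the tested cytosines from annotated start to end, in 16713 gene bodies with at least 10 such cytosines. The median gene body had 0.937 points in control and 1.28 points in DMM limbs. The DMM mean was higher in 66.7% of them. Called gene bodies numbered 0 (limma, Benjamini-Hochberg p under 0.05, percent called 0), and the lowest adjusted p was 0.225. At an unadjusted p under 0.05, limma gave 1335 gene bodies, 1193 with higher and 142 with lower 5hmC in DMM. All DMM pairs lay above all control pairs in 1886 gene bodies (11.3%) and below them in 392 (2.35%). Gene bodies with 100 or more cytosines leaned further towards DMM: of 2402, 78.0% had a higher mean, 18.7% had all DMM pairs above and 1.17% all below. After each pair was scaled to the same genome-wide mean, 49.6% of gene bodies were higher in DMM, 873 (5.22%) had all DMM pairs above and 854 (5.11%) all below. This alternative was chosen after the data had been seen.

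Among the 10 gene bodies with the lowest p and no overlap, 8 were higher in DMM. Sod3 (chr5:52363804-52369738, GRCm38), which encodes the extracellular superoxide dismutase of cartilage matrix, had -2.75, 0.04 and -2.07 points in the control pairs and 6.60, 6.81 and 7.04 points in the DMM pairs over 38 cytosines. The difference was 8.41 points (SE 0.77, limma adjusted p = 0.279). At 4 weeks the same gene had 4.15, 6.77 and 4.09 points in control and 8.09, 8.47 and 7.78 points in DMM pairs, again without overlap. The controls were below 0 on average only at 12 weeks. Bag3 (chr7:128523583-128546981), a co-chaperone that directs damaged proteins to autophagy, had 2.67, 2.99 and 3.42 points in control and 6.21, 6.50 and 6.08 points in DMM pairs over 71 cytosines. The difference was 3.24 points (SE 0.32, limma adjusted p = 0.279). Its limbs overlapped at 4 weeks. Slc38a9, a lysosomal amino acid transporter that signals arginine to mTORC1, had 3.27 points in control and 8.63 points in DMM limbs. Map3k12, a stress-activated kinase upstream of JNK, had -1.91 and 2.35 points, with all 3 control pairs below 0. Skiv2l, the helicase of the SKI complex in RNA decay, had 2.29 and 7.90 points, and Ephx1, microsomal epoxide hydrolase, had -0.03 and 3.49 points. The predicted genes Gm28380 and Gm46277 were higher in DMM by 6.45 and 7.88 points. Zranb3, a helicase at stalled replication forks, was lower, with 5.57, 5.22 and 6.28 points in control and 1.90, 2.0 and 1.76 points in DMM pairs. The predicted gene Gm42037 was lower by 7.61 points, from 6.38 to -1.23. None of these differences passed limma after adjustment (adjusted p 0.22 to 0.28). At 4 weeks only Gm28380 and Sod3 of the 10 again had all DMM pairs above all control pairs. The direction was the opposite at 4 weeks for Zranb3 (1.69 points), Ephx1 (-0.67 points) and Gm46277 (-1.01 points).

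Levels and limb differences of gene bodies were also set against those at 4 weeks. Over 16498 gene bodies the control levels at 4 and 12 weeks correlated at r = 0.799, and the limb differences at r = 0.178. Over the 2402 with 100 or more cytosines, these were 0.929 and 0.404. The points share base composition and sites between weeks but no libraries. Of the 1872 gene bodies with all DMM pairs above at 12 weeks and values at 4 weeks, 72.2% were also higher in DMM at 4 weeks and 6.41% had all DMM pairs above. Over all 16498, these shares were 66.1% and 6.23%. Among the 10 highest gene bodies over all 12-week pairs, of those with at least 30 cytosines, was Etv6, an ETS family repressor, at 7.64, 5.81 and 6.20 points in control and 11.8, 10.9 and 10.9 points in DMM pairs.

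The median difference of promoters was 0.029 points, beside 0.260 points for gene bodies. Called promoters numbered 0 of 14965 (limma, percent called 0), with 710 at an unadjusted p under 0.05. All DMM pairs lay above in 891 promoters (5.95%) and below in 545 (3.64%). The promoter of Gm51916, a predicted gene, had 0.47, 0.07 and 0.01 points in control and 3.56, 3.39 and 3.15 points in DMM pairs (difference 3.18, SE 0.19, limma adjusted p = 0.192). It passed the test, at an adjusted p of 0.0416, when promoters needed at least 15 cytosines. The promoter of Prom1, a pentaspan membrane protein of progenitor cells, was lower in DMM, at 1.24, 1.20 and 1.27 points in control and -0.57, -0.91 and -0.50 points in DMM pairs. The promoter of Shisa4 went from 1.36 to -0.01 points and that of BC004004 from 0.856 to 2.15 points. Rab11fip4, an effector of RAB11 in endosome recycling, had -0.66 and 0.50 points, with all control pairs below 0.

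Genes of cartilage biology were read from 13 lists, among which limma called 0 members. Directions of lists below hold without scaling. With the pairs scaled to the same genome-wide mean, the median difference of 8 lists turned from above to below 0, and the 13 medians lay between -0.81 and 0.16 points. Over all gene bodies, 66.7% were higher in DMM, 11.3% had all DMM pairs above and 2.35% all below. After scaling these shares were 49.6%, 5.22% and 5.11%, and the counts of every list below stand beside them. The list of cartilage matrix genes had 17 measured members, 11 higher and 6 lower in DMM, and none without overlap, against the 11.3% of all gene bodies. The median difference was 0.811 points, beside 0.260 points over all gene bodies. Col11a2, which encodes a chain of the type XI collagen that nucleates cartilage fibrils, had 8.27, 1.19 and 3.31 points in control and 11.7, 6.46 and 8.64 points in DMM pairs. Acan, encoding aggrecan, had 7.09, 3.93 and 0.81 points in control and 7.34, 5.45 and 7.10 points in DMM pairs. Col2a1, encoding the main cartilage collagen, had 1.93 and 2.29 points. Cnmd, encoding chondromodulin, an inhibitor of vessel growth, was at 4.07 and 1.32 points. All of these overlapped between limbs. After scaling, 8 members were higher and 9 lower, and 2 had all DMM pairs below, Cnmd among them.

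Of the 29 measured chondrocyte transcription factors and genes of hedgehog and PTHrP signalling, 24 were higher and 5 lower in DMM, with a median difference of 0.422 points. All DMM pairs lay above in 6 (20.7%, beside 11.3% of all gene bodies and 18.7% of those with 100 or more cytosines). Sox5, Sox6, Runx2, Nfatc2 and Pth1r among these 6 are of that size. After scaling, 14 were higher and 15 lower, 2 had all DMM pairs above and 1 all below. Sox5, a partner of Sox9 in chondrogenesis, had 6.25, 4.36 and 5.94 points in control and 9.05, 6.90 and 8.16 points in DMM pairs over 266 cytosines (difference 2.52, SE 0.78, limma adjusted p = 0.518). Sox6, its close relative, had 1.999, 2.31 and 1.67 points in control and 4.11, 2.45 and 3.38 points in DMM pairs. Sox9 itself, read at 63 cytosines with a BS level of 2.4%, was at 0.13 and -0.15 points. Runx1 and Erg had higher means in DMM by 1.76 and 1.92 points, with overlap. Among 9 genes of hypertrophy and mineralization, 7 were higher and none was without overlap. After scaling, 3 were higher and 6 lower, with 1 all below. Ank, a pyrophosphate transporter, had 4.86 and 6.95 points.

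Matrix proteases and their inhibitors had 20 of 27 members higher and 9 with all DMM pairs above (33.3%, beside 11.3% of all gene bodies), with a median difference of 0.584 points. After scaling, 14 were higher, 13 lower and 3 had all DMM pairs above (beside 5.22%). The serine protease gene Htra1 then was the 1 member with all DMM pairs below (beside 5.11% of all gene bodies), by -1.38 points. Adamts4, an aggrecanase, had 2.51, -2.42 and -1.67 points in control and 3.31, 3.04 and 3.61 points in DMM pairs. Adamts12, a metalloprotease that cleaves COMP, had 5.54, 4.01 and 3.73 points in control and 8.35, 6.09 and 8.77 points in DMM pairs. Adamts10, a protease bound to fibrillin microfibrils, had 1.66, 3.28 and 3.12 points in control and 5.61, 4.58 and 6.44 points in DMM pairs (difference 2.86, SE 0.68, limma adjusted p = 0.442). These 3 genes did not overlap between limbs.

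In the list of activated fibroblast and fibrous matrix genes, 10 of 13 were higher and 5 had all DMM pairs above (38.5%, beside 11.3% of all gene bodies), with a median difference of 1.20 points. After scaling, 6 were higher, 7 lower and 2 had all DMM pairs above. Col5a2, encoding a chain of the collagen that sets fibril width, had 5.24, 3.43 and 7.62 points in control and 8.21, 11.2 and 13.7 points in DMM pairs. Col6a1, of the collagen VI in the pericellular matrix, had 7.51, 4.37 and 3.84 points in control and 10.4, 7.98 and 11.6 points in DMM pairs. Fn1, encoding fibronectin, had 5.87, 6.18 and 3.93 points in control and 7.38, 7.45 and 7.63 points in DMM pairs. Lrrc15, a membrane protein of activated fibroblasts, had 2.33, 1.44 and 1.66 points in control and 5.78, 1.07 and -0.37 points in DMM pairs, with overlap. After scaling to equal genome-wide means, Col5a2, Col6a1, Fn1, Adamts4, Adamts12 and Sox5 overlapped between limbs, whereas Adamts10, Sod3 and Bag3 did not. Scaling also turned the median of this list to -0.37 points and that of the cartilage matrix list to -0.27 points, while that of the protease list was 0.0643 points.

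Signalling genes were read beside the 11.3% of all gene bodies with all DMM pairs above. In the WNT pathway, 27 of 39 were higher, 5 had all DMM pairs above (12.8%) and 1 all below. After scaling, 16 were higher, 2 had all DMM pairs above and 4 all below. Ror2, the receptor for WNT5A, had 3.24, 4.36 and 3.53 points in control and 6.33, 6.55 and 6.91 points in DMM pairs over 224 cytosines (difference 2.88, SE 0.40, limma adjusted p = 0.279). Lrp5, a co-receptor of canonical WNT ligands, had 2.38, 2.26 and 2.21 points in control and 4.16, 3.64 and 3.66 points in DMM pairs. Both were also without overlap after scaling. Sfrp5, a secreted inhibitor of WNT ligands, was at 1.93 and 0.38 points, with overlap. In the TGF-beta and BMP pathway, 34 of 39 were higher and 7 had all DMM pairs above (17.9%). After scaling, 22 were higher, 0 had all DMM pairs above and 2 all below. Tgfbr3, the co-receptor betaglycan, had 5.37, 4.61 and 3.56 points in control and 8.38, 5.89 and 6.43 points in DMM pairs. Smad9, which transmits BMP signals, had a mean of 1.58 in control and 4.37 points in DMM limbs, without overlap. Tgfbr3 and Smad9 overlapped after scaling. Gdf5, a joint-forming ligand, had pairs from -3.28 to 10.2 points in DMM limbs alone. Among inflammatory and stress genes, 17 of 24 were higher, 1 had all DMM pairs above (4.17%) and 1 all below. After scaling, 11 were higher and 13 lower, with 1 all above and 2 all below. Without scaling, the gene below was Hmgb1, encoding a chromatin protein that also acts as an alarmin, with a difference of -0.12 points. The gene above was Il6ra, the interleukin 6 receptor, with -0.59, -0.94 and 0.21 points in control and 2.46, 1.34 and 3.39 points in DMM pairs. Il1r2, the decoy receptor for interleukin 1, was the only gene body past limma under any alternative tried. It was higher by 4.42 points at an adjusted p of 0.0235 when negative cytosine values were set to 0.

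Of 22 measured enzymes and readers of cytosine methylation, 18 were higher (beside 66.7% of all gene bodies). All DMM pairs lay above in 3 (13.6%, beside 11.3% of all gene bodies). Tet2, one of the dioxygenases that make 5hmC, had 2.60, 2.22 and 1.40 points in control and 3.21, 3.08 and 3.23 points in DMM pairs, and overlapped after scaling. Tet1 and Tet3 differed by -0.02 and 0.01 points, with SEs of 0.38 and 0.41. After scaling, Tet1 and Tet3 differed by -0.48 and -0.75 points, with all DMM pairs below all control pairs. The list then had 15 members higher, 0 with all DMM pairs above (beside 5.22% of all gene bodies) and 3 with all below (beside 5.11%). Its median difference was 0.16 points. Dnmt3a, a de novo methyltransferase, which overlapped after scaling, had 0.83, 1.51 and 1.39 points in control and 1.66, 1.89 and 1.82 points in DMM pairs. In the RNA of the other mice, Tet2 was at 11.9 CPM in control and 12.1 CPM in DMM limbs, Tet1 at 3.64 and 4.22, and Tet3 at 24.2 and 22.8 (exact permutation p = 0.9, 0.5 and 0.5). Dnmt1, the maintenance methyltransferase, had 139, 60.2 and 115 CPM in the control and 53.3, 39.3 and 59.3 CPM in the DMM libraries, without overlap (exact permutation p = 0.1).

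Lists of other cell types in and around the joint were read in the same way. Of 19 skeletal muscle genes, 9 were higher and 10 lower, with a median difference of -0.12 points. Myh2, a fast myosin heavy chain, had all DMM pairs above all control pairs, at 0.79, -5.36 and 0.33 against 0.92, 4.67 and 2.46 points, and overlapped after scaling. Scaling left 6 muscle genes higher and 13 lower, with 0 all above and 3 all below. Myh7, the slow myosin heavy chain, was at 0.91 and 4.20 points, with overlap. Ckm, muscle creatine kinase, had all DMM pairs below all control pairs, at 2.46, 3.10 and 4.46 against 1.62, 1.89 and 1.02 points. Of 23 haematopoietic and myeloid genes, 15 were higher, 3 had all DMM pairs above (13.04%, beside 11.3% of all gene bodies) and 1 all below (beside 2.35%). After scaling, 9 were higher and 14 lower, 2 had all DMM pairs above and 3 all below. Csf1r, the macrophage growth factor receptor, ranged from -2.54 to 6.04 points in control and from 4.80 to 11.9 points in DMM pairs. Mpo, encoding myeloperoxidase, was higher by 4.30 points and Cebpe, a transcription factor of late granulocyte maturation, lower, from 5.18 to 0.57, both with overlap, which Cebpe lost after scaling. Inpp5d, an inositol phosphatase of blood cells, was the member with all DMM pairs below, at a difference of -1.89 points. Of 18 endothelial and adipocyte genes, 11 were higher and 2 had all DMM pairs above (11.1%). These were Robo4, a receptor of endothelial cells, at -4.30 and 3.17 points, and Cidec, a lipid droplet protein, at -3.58 and 0.78 points, both with a control mean below 0. After scaling, 10 were higher, 2 had all DMM pairs above and 1 all below. Cdh5, encoding the cadherin of endothelial junctions, went the other way, from 4.14 to 0.46 points, with overlap that was lost after scaling. Of 14 osteoblast and osteoclast genes, 8 were higher and none was without overlap, and after scaling 7 were higher and 7 lower. Acp5, an osteoclast phosphatase, and Sp7, an osteoblast transcription factor, differed by 2.44 and 2.37 points and Col1a1, encoding the main collagen of bone, by -2.05 points. In the RNA, 29 of 30 matched haematopoietic genes had a mean of at least 1 CPM. Their summed level was 8840 to 12297 CPM in the control and 5453 to 9882 CPM in the DMM libraries (exact permutation p = 0.2). Of the 24 muscle genes, 22 had at least 1 CPM, and their sum was 167 to 17487 CPM in the control and 733 to 13285 CPM in the DMM libraries. The 24 matched cartilage matrix genes summed to 20940 to 53725 CPM in the control and 40457 to 60519 CPM in the DMM libraries (exact permutation p = 0.3). The hypertrophy and mineralization list had mean sums of 10151.4 and 15361.5 CPM (exact permutation p = 0.1). The part of cell composition in the 5hmC difference was not tested.

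**Figure D4:**
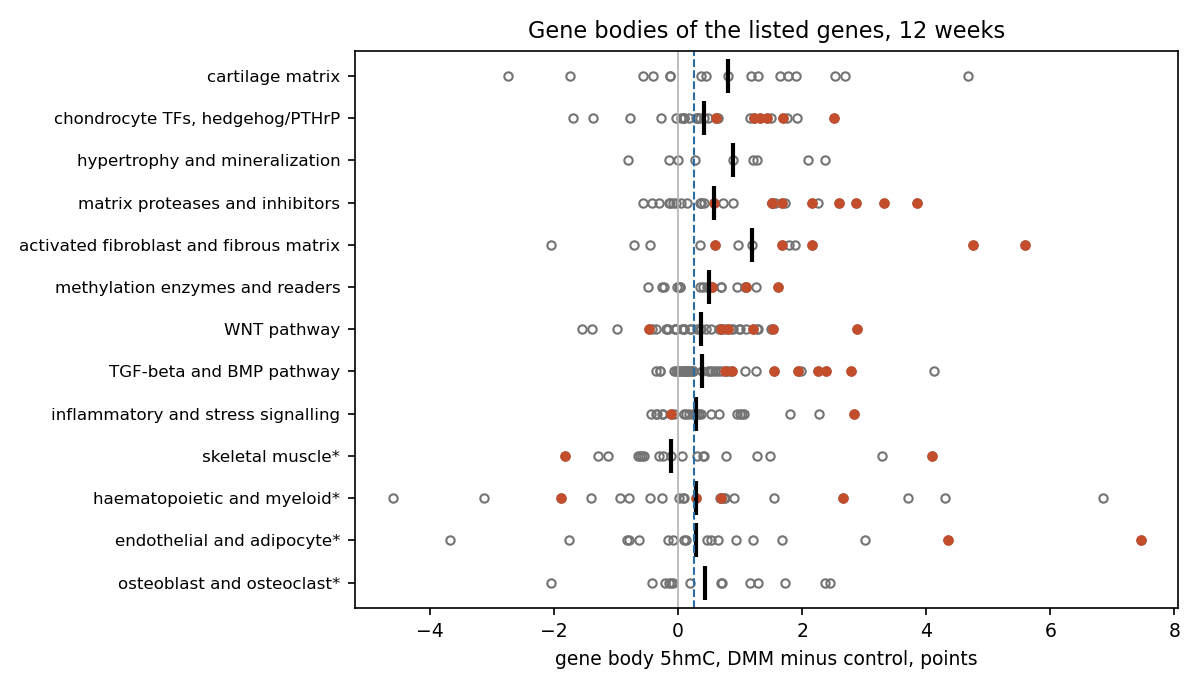
DMM minus control difference in gene body 5hmC (points) for each measured member of 13 gene lists, filled red where the pairs of the limbs did not overlap and open where they did, with a black bar at the list's median and a dashed line at the median of all gene bodies, 0.260 points. Stars mark lists of other cell types, and the activated fibroblast list has the highest median without scaling, 1.20 points, and -0.37 points with it.

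Genes were also split by their length-scaled RNA level in the control libraries, into 3 groups of 2854, 2854 and 2855 genes. Gene body 5hmC, at cytosines more than 1000 bp from a gene start and in genes with at least 10 of them, was 2.14, 3.19 and 3.38 points from the lowest to the highest expressed group in control limbs, and 2.81, 4.21 and 4.54 points in DMM limbs. The limbs did not overlap in any group, and the difference was 31.5%, 31.9% and 34.4% of the control level. Across these 8563 genes, Spearman's rho with RNA level was 0.227 for control 5hmC, 0.0799 for the BS level and 0.104 for the limb difference, as a description over genes that are not independent replicates.

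Smaller regions were then formed by chaining 3 or more tested cytosines, each within 100 bp of the next, which gave 96028 regions. Called regions numbered 0 by limma (percent called 0), with 6133 at an unadjusted p under 0.05, of which 4461 were higher in DMM. All DMM pairs lay above in 6929 regions (7.22%) and below in 3433 (3.57%). The region with the lowest p lay in an intron of Plbd2, which encodes a lysosomal phospholipase B-like protein, and the next in an intron of Ust, whose product sulfates uronic acid in the chondroitin and dermatan sulfate chains of cartilage proteoglycans. Both sequences are shown because these regions separated the limbs most clearly against the spread of the pairs. They are the plus strand of GRCm38, chr5:120502353-120502413 for Plbd2 and chr10:8472183-8472325 for Ust, with 20 bases on each side of the region and the measured CpGs in capitals.
Plbd2: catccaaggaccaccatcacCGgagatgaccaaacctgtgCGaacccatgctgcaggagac
Ust: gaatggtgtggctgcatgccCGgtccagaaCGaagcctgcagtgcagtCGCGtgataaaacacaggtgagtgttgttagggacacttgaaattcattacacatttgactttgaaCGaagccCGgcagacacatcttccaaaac

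Plbd2 had 7.49, 4.70 and 4.93 points in control and 22.7, 23.8 and 22.2 points in DMM pairs over the 3 cytosines of 2 CpGs (difference 17.2, SE 1.03, limma adjusted p = 0.468). Ust had 2.73, 1.31 and 2.166 points in control and 19.3, 22.1 and 18.8 points in DMM pairs over 6 cytosines (difference 17.98, SE 1.11, limma adjusted p = 0.468). Both regions were chosen by the lowest p without overlap, so pairs close within a limb and far from the other limb follow from that choice. The difference lay in the oxBS signal. In Plbd2 the BS level was 70.6% and 70.0% and the oxBS level 64.9% and 47.1%, and in Ust the BS level was 56.5% and 52.9% and the oxBS level 54.4% and 32.9%. Other regions among those with the lowest p went either way. An intron of Tmem132c, a transmembrane protein gene, went from 12.9 to 0.529 points. An intron of Bcl11b, a zinc finger transcription factor, was higher by 17.2 points, an exon of Neurl1a, a ubiquitin ligase, by 9.31 points and an exon of Septin9, a cytoskeletal GTPase, by 7.62 points.

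Single cytosines were tested on reads pooled by limb with a logistic model after the oxBS signal was subtracted, at the thresholds of the study's methods. Read counts of a pair that fell below 0 after the subtraction were set to 0. Pooled differences can therefore differ from those of the pair values, which keep negative values. A differentially methylated cytosine (DMC) had a difference of at least 25 points and a q under 0.05. There were 460 DMCs (0.0393% of those tested), 386 with higher 5hmC in DMM (0.033%) and 74 with lower (0.00632%). The pooled test takes reads as its units and carries no counting error of the oxBS library, and on simulated reads it made calls where there was no true difference. A Wald test was also run on the raw reads of both libraries, likewise pooled by limb. It compared BS minus oxBS between the limbs (the raw-read interaction) and called 0 cytosines (38794 at an unadjusted p under 0.05). A correction of the pooled test for overdispersion also left 0 (29793 unadjusted), as did limma on the pairs (45426 unadjusted, 27521 of them higher). The limma count is the largest of these and is 3.88% of the 1171395 tested cytosines. That is less than p under 0.05 gives on average without any difference. The calls are therefore given with their pairs. At the 386 DMCs higher in DMM, the control pairs averaged 2.26, 1.56 and 0.775 points and the DMM pairs 28.9, 31.4 and 34.4 points. The limbs did not overlap at 327 of them, where over all cytosines the DMM pairs lay above at 3.4% and below at 2.25%. These DMCs were chosen on the same values. The direction of the calls rested on single pairs: without control replicate 1 there were 1470 DMCs, 663 higher and 807 lower in DMM, and without control replicate 3 there were 898, 59.9% of them higher. Their BS level was 65.2% in control and 75.5% in DMM limbs, and their oxBS level was 63.7% and 44.0%. At the 74 lower DMCs the control pairs averaged 32.0, 24.7 and 30.5 points and the DMM pairs 2.296, -1.17 and -0.34 points.

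Of the higher DMCs, 50.8% lay in introns, beside 22.1% of all tested cytosines, and 9.07% lay in promoters, beside 44.7%. The lower DMCs were placed alike, with 52.7% in introns and 5.41% in promoters, so this placement was not particular to higher 5hmC. The mean BS level in control and DMM limbs was 3.95% and 3.82% in promoters, and 55.6% and 54.7% in introns. So low a level leaves little room for the difference that a DMC needs. The placement therefore cannot tell where 5hmC was more prone to differ. The other strand of the same CpG, which is read from other DNA fragments, was tested for 52 of the higher DMCs. It was higher in DMM at 31 of them (59.6%), with a median difference of 4.00 points, where the DMCs themselves had 27.9 points. Over the 119735 cytosines with a tested partner, both strands moved to the same side at 50.3%. Both strands were DMCs in the same direction at 1 CpG, chr17:28239398-28239399 in an intron of Ppard. This gene encodes PPAR delta, a nuclear receptor of fatty acid metabolism. Its plus strand had 12.0, 16.7 and 8.33 points in control and 41.1, 25.7 and 45.1 points in DMM pairs, and its minus strand had 9.91, 0.95 and 1.67 points in control and 35.2, 20.03 and 33.7 points in DMM pairs. Of the 74 lower DMCs, 19 had a tested partner, of which 8 were lower in DMM.

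Differentially methylated regions (DMRs) were then formed from the 5hmC calls. A DMR was a chain with a mean pooled difference of at least 20 points and at least 1 cytosine past 25 points at q under 0.01. There were 21 DMRs (0.0219% of the regions), each with higher 5hmC in DMM, 9 to 165 bp long with 3 or 4 tested cytosines. Introns held 13, exons 2, promoters 2 and intergenic sequence 4. The limbs did not overlap in 18. This single direction was lost without control replicate 1, with 17 higher and 15 lower DMRs, without control replicate 2 (22 and 3), without control replicate 3 (18 and 7), without DMM replicate 2 (26 and 2), without the pairs with titles of one style (36 and 5) and with unweighted means (60 and 8). The sequences of 6 DMRs are shown, those with all pairs apart that lay in introns of genes among the 10 with the largest difference. They give the CpGs on which each value rests, again as the GRCm38 plus strand with 20 flanking bases on each side and the measured CpGs in capitals. The windows are chr7:128527518-128527722 for Bag3, chr17:49536070-49536150 for Daam2, chr15:54252938-54253019 for Tnfrsf11b, chr11:76272552-76272620 for Nxn, chr7:115568414-115568492 for Sox6 and chr17:28239347-28239419 for Ppard.
Bag3: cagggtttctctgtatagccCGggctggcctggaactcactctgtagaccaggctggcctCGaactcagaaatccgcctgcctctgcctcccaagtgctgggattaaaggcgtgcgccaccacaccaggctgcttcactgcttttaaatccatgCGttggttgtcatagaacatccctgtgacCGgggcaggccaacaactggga
Daam2: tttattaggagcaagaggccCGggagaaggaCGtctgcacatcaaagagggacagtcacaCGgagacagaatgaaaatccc
Tnfrsf11b: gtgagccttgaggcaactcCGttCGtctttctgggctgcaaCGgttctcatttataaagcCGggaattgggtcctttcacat
Nxn: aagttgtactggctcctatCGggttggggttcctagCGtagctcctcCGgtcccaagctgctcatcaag
Sox6: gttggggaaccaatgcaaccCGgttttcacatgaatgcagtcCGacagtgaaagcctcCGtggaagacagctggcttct
Ppard: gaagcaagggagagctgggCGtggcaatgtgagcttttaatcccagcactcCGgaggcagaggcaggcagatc

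The DMR in Bag3 had 6.44, 21.2 and 8.56 points in control and 45.0, 31.8 and 33.9 points in DMM pairs. It is 4 of the 71 cytosines of the gene body above, and 69.1% of it is masked as repeat. The DMR in Ppard, 72.7% repeat, had 8.20, 6.03 and 1.27 points in control and 31.7, 23.4 and 28.5 points in DMM pairs and the lowest limma p of the DMRs, 0.00055 unadjusted and 0.468 adjusted. Tnfrsf11b encodes osteoprotegerin, the decoy receptor for RANKL. Its intron had -5.00, -16.4 and -13.3 points in control and 13.4, 22.8 and 30.1 points in DMM pairs. Sox6 had -1.11, -13.5 and 7.90 points in control and 12.8, 23.9 and 39.2 points in DMM pairs.

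Daam2, a formin in WNT signalling, had 15.7, -13.5 and 2.61 points in control and 31.6, 37.0 and 30.7 points in DMM pairs. Nxn, encoding nucleoredoxin, a redox protein that binds Dishevelled, had 6.18, 8.89 and 8.45 points in control and 19.996, 42.7 and 32.5 points in DMM pairs. Arpc4, encoding a subunit of the actin-branching ARP2/3 complex, had a DMR in its promoter, with -8.81, -5.98 and -10.4 points in control and 22.5, 39.3 and 13.4 points in DMM pairs. In 5 of the 21 DMRs the control mean was below 0, a level that 5hmC cannot have. Over the DMRs the BS level was 67.3% in control and 73.0% in DMM limbs and the oxBS level 65.3% and 45.7%, and the oxBS level was lower in DMM in 20. At a minimum of 20 reads there were 69 DMCs and 0 DMRs.

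The calls were looked up in the 4-week pairs, which were not used to make them. Of the 386 higher DMCs, 295 were measured at 4 weeks, with 13.2, 20.1 and 16.9 points in control and 17.3, 23.0 and 20.4 points in DMM pairs. The difference was 3.51 points (exact permutation p = 0.2), 191 cytosines being higher and 104 lower. Over all cytosines of both weeks the 4-week limbs had 2.15 and 2.58 points, and 66.1% of all gene bodies were higher in DMM at 4 weeks. Whether the called cytosines differed by more than this general shift was not tested. The control pairs stood at 16.7 points on average at these 295 cytosines. At 12 weeks they stood at 1.53 points over all 386. At 51 of the lower DMCs, the 4-week limbs had 6.80 and 10.6 points, which is the opposite direction (exact permutation p = 0.3). This difference of 3.78 points was 1.62 without control replicate 1 of week 4. At a coverage minimum of 20 it was -0.230, over 6 cytosines. At 42 cytosines of the DMRs both limbs had 14.1 points (difference -0.03, exact permutation p = 1). With 1 pair left out this difference lay between -3.45 and 2.53 points, and at a coverage minimum of 20 it was 5.77, over 5 cytosines.

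**Figure D5:**
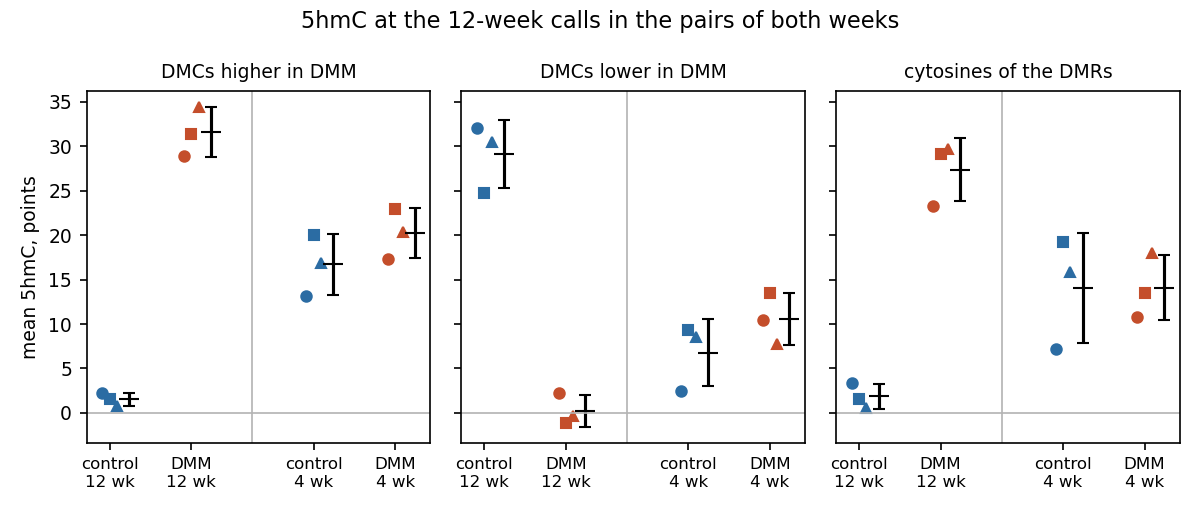
Mean 5hmC (points) of each control (blue) and DMM (red) pair at the cytosines called at 12 weeks, shown for both weeks, with circles, squares and triangles for replicates 1, 2 and 3 and bars for the mean ± SD of 3 pairs. The limbs stand apart at 12 weeks, where the calls were made, and overlap at 4 weeks, where the higher DMCs average 16.7 and 20.2 points.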

How the data were processed

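Per the study's methods, the authors digested cartilage DNA with MspI, combined indexed libraries in sixes, and oxidised one part of every pool (oxBS) and mock-oxidised the other (BS) before bisulfite treatment and sequencing. The deposited coverage is a count of reads per CpG cytosine and strand, and the deposited methylation is the percent of reads with C. Mitochondrial cytosines, of which 0.284% to 0.364% of calls were read as C, were used only as a measure of unconverted cytosine. The submitters' processing notes name Bismark, STAR and featureCounts. RNA values are raw counts as deposited by the authors, and were divided by library totals of 27706547 to 62737656.

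Libraries were grouped by their labels and joined by the replicate in the title. The members and gene lists were chosen with earlier results of these data known. No weights, scaling or removal of negative values were applied in the main analysis of means, contexts, gene bodies, promoters and regions by limma. The pooled-read test, and so the DMCs and DMRs, set negative 5hmC read counts of a pair to 0 and pooled the pairs by BS coverage. The alternative with unweighted means took its differences from the pair values, with negative values kept. Gene bodies needed at least 10, promoters 5 and regions 3 tested cytosines, and each was tested with limma 3.58.1 in R 4.3.3 with Benjamini-Hochberg adjustment over all of its kind. Other tests ran in Python 3.11.15 with scipy 1.17.1. The pooled-read test, the raw-read interaction test and limma on gene bodies were run on simulated reads. These had no spread between the pairs of a limb beyond read counts, and the pooled-read test made calls there without a true difference. The other tests were not simulated. Genes, introns and exons are those of RefSeq for GRCm38, on which the deposited positions were checked. Replicates are pools of knees, so the permutation and limma p-values measure the spread between these pools. Those of the pooled-read and raw-read tests take reads as units and do not hold this spread. Alternatives were a coverage minimum of 20, coverage weights, negative values set to 0, other tests and thresholds, a replicate block, and leaving out pairs. Named were the 10 gene bodies, promoters and regions with the lowest p and no overlap, the 10 DMRs with the largest difference, CpGs with both strands called, and the 3 largest differences of each gene list with the TET and DNMT genes, Col2a1, Acan, Sox9 and Lrrc15. Sox6, Etv6, Il1r2 and the other genes set beside these were chosen after their values were seen, and some genes under the rule are given by counts only or are not reported here.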

Additional observations from a re-analysis of the deposited data

How the results depend on the processing

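The genome-wide difference (0.513 points) and those of the 12 contexts kept their direction in 131 of 133 alternatives. Most of these alternatives left out pairs or used a replicate block. Where all DMM pairs lay above all control pairs, leaving out pairs cannot turn the direction, and the block keeps the same mean difference. The count is therefore no measure of stability. With negative values set to 0, the class with 20 or more CpGs turned to -0.0206 points and the class with a 4-week BS level under 20% to -0.0319 points (exact permutation p = 0.5 each), while the genome-wide difference was 0.237 (p = 0.4). Weighting each library by its own coverage before subtraction gave 0.649 points (exact permutation p = 0.5). A coverage minimum of 20 gave 0.452, and leaving out 1 pair 0.362 to 0.651.

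The count of DMCs (460) became 69 at a coverage minimum of 20, 1433 without the pairs with titles of one style, 2729 with unweighted means, 2301 at 20 points, 753 to 1470 with 1 pair left out, and 0 with overdispersion, with the raw-read interaction and with limma. The higher share (83.9%) became 92.8%, 79.1%, 70.9% and 78.7% under the first 4 of these. With 1 pair left out it was 45.1% (without control replicate 1, 663 higher and 807 lower) to 91.5%, and 59.9% without control replicate 3. The DMRs (21) became 0 at a coverage minimum of 20, 41 without the pairs with titles of one style, 3 at a mean of 25 points, 68 with unweighted means, and 25 to 33 with 1 pair left out (17 higher and 15 lower without control replicate 1). The cause of these changes was not tested.

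By limma, 1 gene body (Il1r2) passed with negative values set to 0, 1 promoter (Gm51916) with at least 15 cytosines, and 0 to 1 promoters with 1 pair left out (Cmtm1, -16.1 points, without control replicate 3). The difference between time points (0.0715) was -0.0313 without the pairs with titles of one style and -0.170 to 0.333 with 1 pair left out, -0.0779 without DMM replicate 1 at 12 weeks, -0.0524 without DMM replicate 1 at 4 weeks. At 4 weeks, a coverage minimum of 20 gave -0.230 points at the lower DMCs and 5.77 at the DMR cytosines. With 1 pair left out at 4 weeks, the latter were -3.45 to 2.53. Replicate numbers were not taken to pair the limbs, and deviations of same-numbered pairs correlated at -0.00604, -0.00489 and 0.00319. Even BS and oxBS libraries of the same title correlated at only 0.120 to 0.238. Values near 0 therefore cannot tell whether equal numbers mark the same animals. With a replicate block the differences by number were 0.806, 0.144 and 0.590, and their sign flips gave a genome-wide p of 0.25, the smallest value possible. The time point p by sign flips was 0.875, the DMCs 446, the DMRs 16 and called gene bodies 0. Depth limits single cytosines, with median coverages of 19 to 73 reads.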
